A study of Homo sapiens with 36 samples.

Results

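The regions described here are the wide peaks of CTCF chromatin immunoprecipitation and sequencing (ChIP-seq) after knockdown of CHD3 in HEK293T, an established human embryonic kidney cell line. They were chosen by 1 measured value in the siCHD3 peak list, a called width over 1000 bp on chromosomes 1 to 22 and X, with lines that share a start and an end counted as 1 peak. There were 937 such peaks among the 34319 peaks of the siCHD3 list (2.73%, exact Clopper-Pearson 95% interval 2.56 to 2.91). Together they covered 1.35 Mb, which was 11.3% of the sequence covered by all siCHD3 peaks. Because the siCHD3 list chose them, their width, fold, summits and pileup in that list are a description, and what they share in the other 5 lists is what the choice did not use.

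CTCF is a zinc-finger protein that binds a long sequence motif at insulators and at the anchors of chromatin loops, where cohesin halts. It binds as a point source, and a peak caller usually returns short peaks with a single summit over its sites. CHD3 is an ATP-dependent helicase of NuRD, a complex that slides nucleosomes and removes acetyl groups from histones. A wide peak is a stretch in which signal over background continued without a break, and it can hold several summits, the local maxima at which the caller places its values.

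The series compared 6 transfections of HEK293T cells, with small interfering RNA (siRNA) against CHD3, CHD4, CHD5, MBD2 or MBD3, or with a control siRNA (siNC). CHD4 and CHD5 are sister helicases of CHD3, and MBD2 and MBD3 are the methyl-CpG-binding-domain subunits of NuRD. Each condition had 3 CTCF immunoprecipitates and 3 inputs, 36 samples in 12 groups, and the labels give no time after transfection and no measure of the remaining protein. What was analysed was 1 peak list for each of the 6 conditions. The authors had pooled the 3 replicates in it, so the spread between them could not be measured and no conditions were tested against each other. Intervals are exact Clopper-Pearson 95% intervals and cover counting error only, and PCR copies are not independent molecules. Knockdown could not be checked in these lists. Positions are on hg19 and 1-based.

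The siCHD3 list held more wide peaks than any of the other 5 lists. Peaks over 1000 bp numbered 937 of 34319 in siCHD3 (2.73%), 353 of 25358 in siCHD4 (1.39%, interval 1.25 to 1.54), 64 of 25848 in siMBD3 (0.248%, 0.191 to 0.316), 33 of 26087 in siMBD2 (0.127%, 0.0871 to 0.178) and 39 of 31451 in siCHD5 (0.124%, 0.0882 to 0.169), against 164 of 36270 in siNC (0.452%, 0.386 to 0.527). The siCHD3 share was thus 6.04 times the siNC share and the siCHD4 share 3.08 times, with intervals that did not overlap that of siNC, whereas the shares of siCHD5, siMBD2 and siMBD3 lay below it. Over 2000 bp there were 88 peaks in siCHD3, 33 in siCHD4, 4 in siMBD3, 1 in siMBD2 and 4 in siCHD5, against 8 in siNC. The lists did not differ in the same order in their typical width, since the median peak measured 279 bp in siCHD3, 252 bp in siCHD4, 300 bp in siCHD5, 267 bp in siMBD2, 242 bp in siMBD3 and 304 bp in siNC. The lists also differed in background. The fold and p of a peak fix its pileup and local background. The lowest background in a list, which scales with depth and fragment length, was 0.445 fragments in siCHD3, 1.06 in siCHD4, 0.374 in siMBD3, 0.640 in siMBD2 and 1.95 in siCHD5, against 2.96 in siNC. The siMBD3 list, with the lowest of these values, held 64 wide peaks, and the part of depth in the difference from siNC was not tested.

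**Figure D1:**
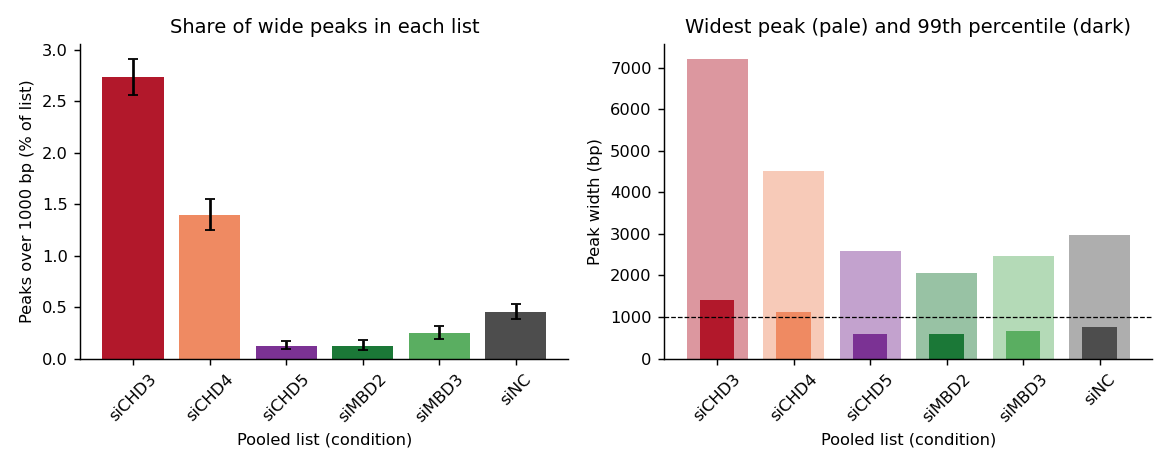
The left panel plots the share of peaks over 1000 bp in each pooled list (%, bars, with exact 95% intervals of counting error) and the right panel the widest peak and the 99th percentile of width (bp, with a dashed line at 1000 bp). siCHD3 stands highest in both panels, with a share of 2.73% and a widest peak of 7207 bp, against 0.452% and 2972 bp in siNC.

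Nearly all wide peaks of the other lists overlapped a wide siCHD3 peak. The numbers that did so were 333 of 353 in siCHD4 (94.3%), 63 of 64 in siMBD3 (98.4%), 31 of 33 in siMBD2 (93.9%) and 34 of 39 in siCHD5 (87.2%), against 158 of 164 in siNC (96.3%). The same share over all peaks of each of these lists was not counted. A longer peak also has more room for an overlap, so nothing more is read from these numbers. Read from the side of the 937 wide siCHD3 peaks, a peak over 1000 bp was present at 330 in siCHD4 (35.2%, interval 32.2 to 38.4, against 1.05% of all siCHD3 peaks), at 34 in siCHD5 (3.63%, 2.53 to 5.03, against 0.114%), at 31 in siMBD2 (3.31%, 2.26 to 4.66, against 0.0991%), at 62 in siMBD3 (6.62%, 5.11 to 8.403, against 0.186%) and at 153 in siNC (16.3%, 14.02 to 18.9, against 0.469%). In any of the 5 lists together, 351 wide siCHD3 peaks (37.5%) met a peak over 1000 bp, against 1.15% of all siCHD3 peaks. The other 586 (62.5%) were over 1000 bp in the siCHD3 list and in none of the others.

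The limit of 1000 bp cut through a continuous range of widths. Just inside it lay peaks of 1001 bp on chromosome 19 from 24009883 to 24010883 (fold 52.5), 1001 bp at the 3′ end of RBFOX2, an RNA-binding splicing regulator, on chromosome 22 from 36135470 to 36136470 (fold 6.76), and 1002 bp on chromosome 11 from 64084207 to 64085208 (fold 14.1). Just outside it lay peaks of 999 bp on chromosome 1 from 155629493 to 155630491 (fold 8.25), 999 bp on chromosome 4 from 146546268 to 146547266 (fold 6.55) and 998 bp on chromosome 16 from 29821462 to 29822459 (fold 27.0). Of the 937 wide peaks, 365 measured at most 1200 bp, 282 up to 1500 bp, 202 up to 2000 bp, 70 up to 3000 bp and 18 more than that. Their median width was 1290 bp (quartiles 1122 and 1595), against 276 bp (232 and 344) for the peaks of at most 1000 bp.

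In their own list the wide peaks were high as well as wide. Fold here is the authors' enrichment at the strongest summit of a peak over its local background. It had a median of 15.2 in the wide peaks (quartiles 9.53 and 26.5, range 2.59 to 138), against 6.20 in the peaks of at most 1000 bp (4.85 and 7.88, range 1.53 to 207), and 638 wide peaks (68.1%) ranked in the top 10% of the siCHD3 list. The fragments behind them were few, with a median pileup of 28 at the strongest summit (quartiles 15 and 57, range 6 to 3425) over a median background of 0.790. Among the wide peaks 138 had a −log10 q under 10 and 799 reached it. The highest fold of any peak was 207 in siCHD3, 81.7 in siCHD4, 42.4 in siMBD3, 35.1 in siMBD2 and 31.2 in siCHD5, against 26.1 in siNC. Folds of different lists are therefore not on 1 scale, and a higher fold in siCHD3 is not by itself a change at that peak.

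Most wide peaks held several summits. There were 804 of 937 with more than 1 (85.8%, interval 83.4 to 88.0), against 4.55% of all siCHD3 peaks, and both the width and the summits come from the siCHD3 list, so nothing is read from the difference. A single summit was called in 133, 2 summits in 383, 3 in 276, 4 in 92 and 5 or more in 53, with a maximum of 13. Neighbouring summits lay a median of 454 bp apart (quartiles 339 and 590, 1471 distances). Within a peak the weakest summit reached a median of 53.8% of the fold of the strongest (quartiles 38.3 and 71.7). The strongest summit lay in the middle 50% of the peak in 491 wide peaks (52.4%).

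Of the 10 widest peaks, 9 lay in genes, mostly towards their 3′ ends. Annotation of hg19 was not used here. Gene positions on hg19 were instead entered by hand for 98 genes and checked by name against RefSeq on GRCh38, without converting coordinates. All 98 were found on the same chromosome, in the same order on 18 of the 18 chromosomes that hold more than 1 of them, and 81 had a span within 10% of the RefSeq length. The place of a peak in a gene is given as the distance of its centre from the 5′ end, in percent of the gene's length.

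The widest of all lay in XIST, the long noncoding RNA that coats the inactive X chromosome, on chromosome X from 73040530 to 73047736. This peak of 7207 bp had its centre at 88.6% of the gene. It held 9 summits in siCHD3 and had a fold of 41.7. The same stretch was broken into 3 peaks in siCHD4 (widest 2832 bp, highest fold 18.1), 5 in siMBD3 (1065 bp, 11.4), 3 in siMBD2 (850 bp, 4.83) and 3 in siCHD5 (760 bp, 6.93), against 6 in siNC (1129 bp, 6.73). Of its 9 siCHD3 summits, 9 had a summit within 100 bp in siCHD4, 3 in siMBD3, 3 in siMBD2 and 4 in siCHD5, against 8 in siNC. The place of the signal along XIST was therefore largely the same in siCHD3 and siNC. The siCHD3 peak ran through the stretches between summits at which the siNC peaks ended, and its fold was higher, in a list whose folds ran higher. XIST held 4 further wide siCHD3 peaks, of 2078, 1966, 1180 and 1149 bp. They were centred at 9.90%, 32.1%, 26.3% and 3.90% of the gene, all nearer to its 5′ end.

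MKI67, which encodes the Ki-67 protein of dividing cells, carried the wide peak with the most summits. It ran over 6719 bp on chromosome 10 from 129900917 to 129907635, with 13 summits and a fold of 22.3 in siCHD3. There were 3 peaks under it in siCHD4 (widest 4504 bp, fold 14.4), 5 in siMBD3 (573 bp, 7.71), 1 in siMBD2 (225 bp, 4.32) and 2 in siCHD5 (304 bp, 3.65), against 4 in siNC (1247 bp, 7.03). Its centre lay at 68.5% of the gene.

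SRRM2, a scaffold of the nuclear speckles in which splicing factors gather, held a peak of 5470 bp with 12 summits and a fold of 33.8, on chromosome 16 from 2811602 to 2817071. The centre of this peak lay at 62.9% of the gene. This one was wide in most lists, with widest partners of 2829 bp in siCHD4, 1085 bp in siCHD5, 763 bp in siMBD2, 2089 bp in siMBD3 and 2972 bp in siNC. The siNC partner was the widest peak of the whole siNC list. AKAP12, an anchoring protein for protein kinase A, followed with 4884 bp, 9 summits and a fold of 24.7 on chromosome 6 from 151669934 to 151674817, and its widest partners measured 3517 bp in siCHD4, 372 bp in siCHD5, 250 bp in siMBD2, 497 bp in siMBD3 and 904 bp in siNC.

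**Figure D2:**
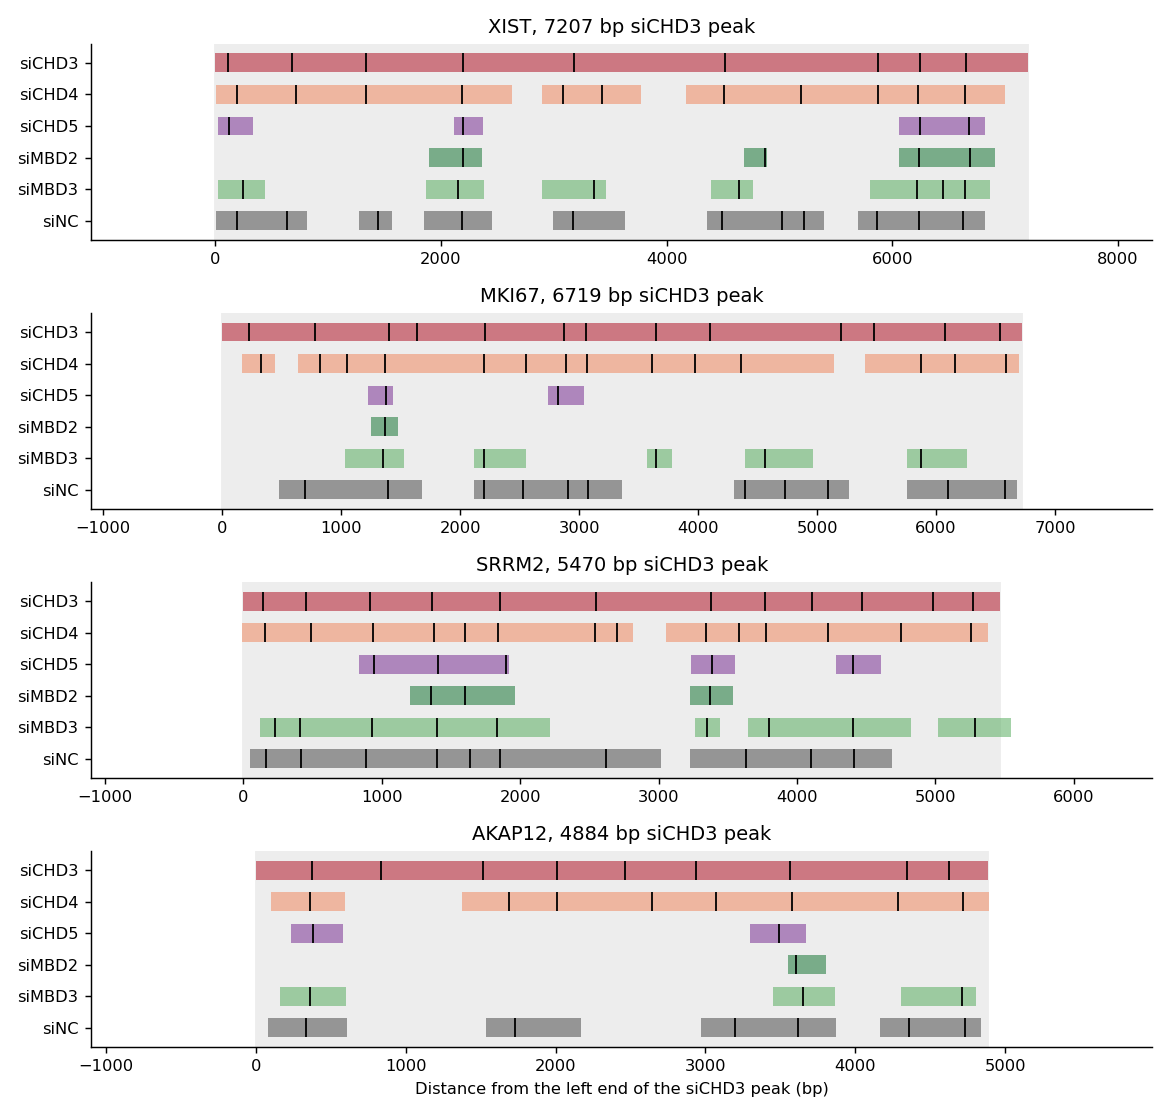
Peaks of the 6 lists (coloured bars) and their summits (black ticks) at the 4 widest siCHD3 peaks, against the distance in bp from the left end of the siCHD3 peak, which is shaded grey. In XIST, MKI67, SRRM2 and AKAP12 1 unbroken siCHD3 bar stands over several shorter bars in most other lists, and siNC has 6, 4, 2 and 4 bars.

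Of the other 6 among the 10 widest, 5 also lay towards the 3′ end of a gene. SPEN, a transcriptional repressor that binds XIST, held a peak of 4648 bp centred at 92.0% of the gene and another of 2335 bp at 87.9%. NUCKS1, a nuclear DNA-binding phosphoprotein, held 4063 bp at 90.3%, SCD, the stearoyl-CoA desaturase of fatty acid synthesis, 4021 bp at 88.5%, ANKRD11, an ankyrin-repeat chromatin regulator, 3957 bp at 92.8%, and AMOT, the Hippo pathway scaffold angiomotin, 3593 bp at 97.0%. The ninth widest, 3667 bp on chromosome 13 from 77558974 to 77562640 with a fold of 60.8, was not placed in a gene. All 10 overlapped a siNC peak and a siCHD4 peak, but SPEN lacked a siCHD5 partner and AMOT a siMBD2 partner. In the 9 genes that hold these peaks, 10 of 14 wide siCHD3 peaks lay downstream of the gene's midpoint, against 13 of 22 siCHD3 peaks of at most 1000 bp in the same genes. The last 25% of the gene held 8 of these 14 wide peaks (57.1%), against 11 of the 22 narrower ones (50.0%). The gene lists were chosen with the peaks in view, so these counts describe the named genes and no others.

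Most wide siCHD3 peaks had a peak at the same place in siCHD4 and siNC, whereas in siCHD5 and siMBD2 their share with a partner lay below that of the whole list. An overlap of 1 bp counted as a partner. In siCHD4, 879 of 937 had a partner (93.8%, interval 92.1 to 95.3), against 56.2% of all siCHD3 peaks. In siMBD3 it was 629 (67.1%, 64.0 to 70.1), against 53.1%, and in siNC 763 (81.4%, 78.8 to 83.9), against 67.4%. The direction was the other way in siCHD5, with 359 (38.3%, 35.2 to 41.5), against 59.5%, and in siMBD2, with 437 (46.6%, 43.4 to 49.9), against 53.7%. All of these intervals lay clear of the share over all siCHD3 peaks. A partner was found in all 5 other lists for 301 wide peaks (32.1%, 29.1 to 35.2), against 34.4%, a share that its interval contains. No other list had a partner for 38 (4.06%, 2.89 to 5.52), against 23.3%.

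The wide peaks were stronger than the list as a whole, so wide and narrower peaks were also set side by side on each side of the median fold of the wide peaks, 15.2. At or above it lay 469 wide peaks (median fold 26.5) and 1343 siCHD3 peaks of at most 1000 bp (median fold 23.5). In this stronger class the wide peaks had a partner more often in each list, though the intervals of both sets overlapped in siMBD2. The shares were 100% against 98.4% in siCHD4, 91.5% (interval 88.6 to 93.8) against 85.4% in siMBD3, 73.6% (69.3 to 77.5) against 67.9% in siMBD2, 66.5% (62.1 to 70.8) against 55.03% in siCHD5 and 97.9% (96.1 to 98.97) against 94.2% in siNC. All 5 lists shared 57.8% of these wide peaks, against 47.0% of the narrower ones, and 0 of 469 wide peaks were without any partner (interval up to 0.783%).

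Below the median fold the lists parted. There the 468 wide peaks (median fold 9.52) had a partner in 87.6% in siCHD4 (interval 84.3 to 90.5), 42.7% in siMBD3 (38.2 to 47.4), 19.7% in siMBD2 (16.2 to 23.6), 10.04% in siCHD5 (7.47 to 13.1) and 65.0% in siNC (60.4 to 69.3). The 32039 narrower peaks below that fold (median 6.09) had one in 53.4% in siCHD4, 51.3% in siMBD3, 53.4% in siMBD2, 60.3% in siCHD5 and 65.8% in siNC. The low share of the wide peaks in siCHD5 and siMBD2 thus came from the weaker 468 of them. The peaks were not matched one by one within these classes, and a longer peak has more room for an overlap.

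**Figure D3:**
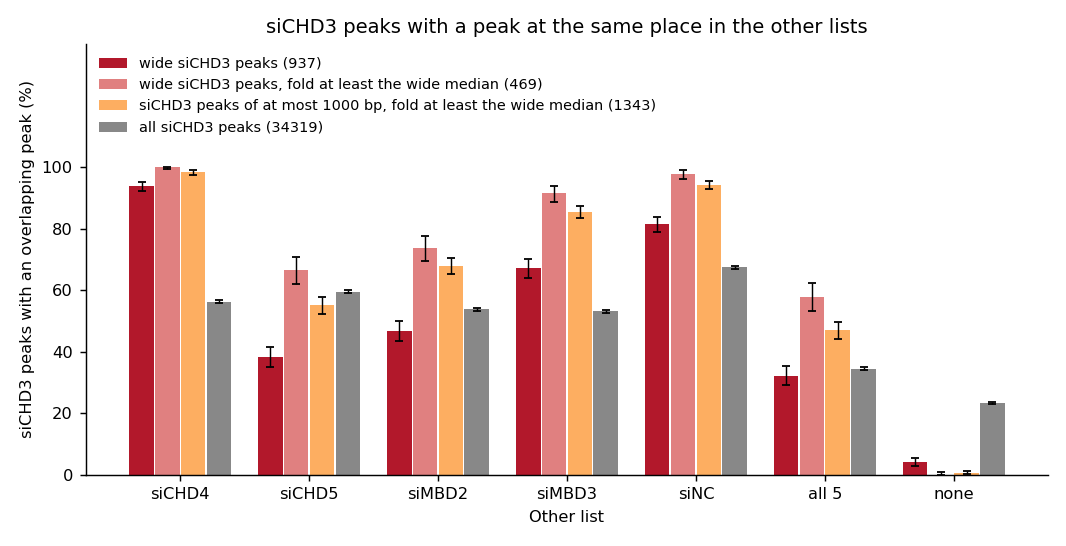
Share of siCHD3 peaks (%) with an overlapping peak in each other list, in all 5 and in none, for the 937 wide peaks, for the 469 of them with at least their median fold, for 1343 narrower peaks of at least that fold and for all 34319 peaks, with exact 95% intervals of counting error. The wide peaks stand above all siCHD3 peaks in siCHD4, siMBD3 and siNC and below them in siCHD5 and siMBD2, while the 469 strong ones stand above the narrower peaks of like fold in each list.

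The lists that shared a wide peak came in a few combinations. After the 301 peaks found in all 5 other lists, the most frequent combination was siCHD4, siMBD3 and siNC, with 155 wide peaks (16.5%, against 1.99% of all siCHD3 peaks). Next came siCHD4 and siNC with 126 (13.4%, against 2.64%), siCHD4, siMBD2, siMBD3 and siNC with 92 (9.82%, against 1.28%), and siCHD4 alone with 88 (9.39%, against 4.97%). A siNC partner with no partner in any knockdown list was found for 8 wide peaks (0.854%), against 652 of all 34319 siCHD3 peaks, a larger share. By number of lists, 301 wide peaks had partners in 5, 136 in 4, 195 in 3, 166 in 2, 101 in 1 and 38 in 0.

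Sharing was highest for the wide peaks of highest fold in siCHD3, though not every step between classes went up. The wide peaks were split by fold into 4 classes of 234 or 235. In the lowest class (2.59 to 9.53), 77.0% had a partner in siCHD4, 31.9% in siMBD3, 14.9% in siMBD2 and 11.9% in siCHD5, against 48.5% in siNC. In the highest class (26.5 to 138) the shares were 100% in siCHD4, 100% in siMBD3, 94.0% in siMBD2 and 94.0% in siCHD5, against 100% in siNC, and 89.3% were found in all 5. The lists separated most in the second class (9.53 to 15.2), where siCHD4 had 98.3%, siNC 81.2%, siMBD3 53.4%, siMBD2 24.4% and siCHD5 8.12%. The siCHD5 share was thus lower there than in the lowest class, and so was the share found in all 5 lists, with 4.70% in the second class and 8.09% in the lowest. Width went the same way less steeply, and again not at every step. A siNC partner was found for 73.4% of the 365 peaks of at most 1200 bp and 82.3% of the 282 up to 1500 bp. It was found for 88.1% of the 202 up to 2000 bp, 97.1% of the 70 up to 3000 bp and 94.4% of the 18 over 3000 bp. For siCHD5 these shares were 30.1%, 37.6%, 45.5%, 54.3% and 72.2%.

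**Figure D4:**
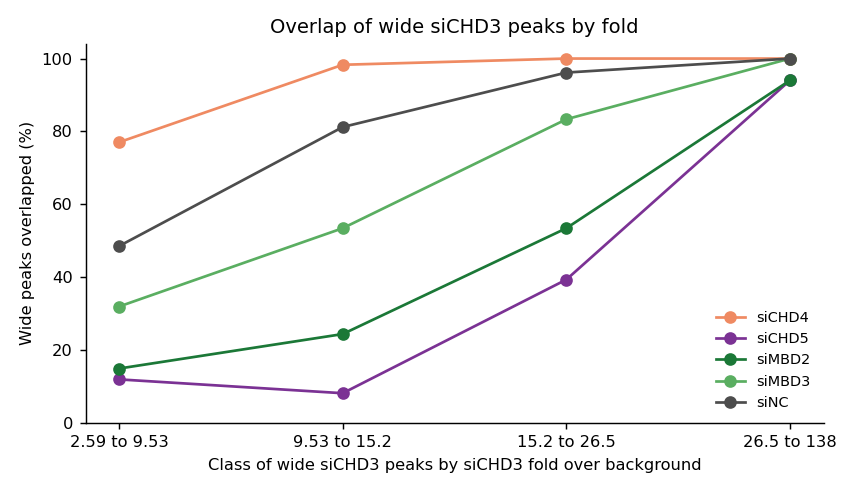
Share of the wide siCHD3 peaks (%) overlapped in each other list, by class of their fold over background in siCHD3, each class holding 234 or 235 peaks. All 5 lines end between 94.0% and 100% in the highest class, and in the second they run from 8.12% in siCHD5 to 98.3% in siCHD4.

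**Figure D5:**
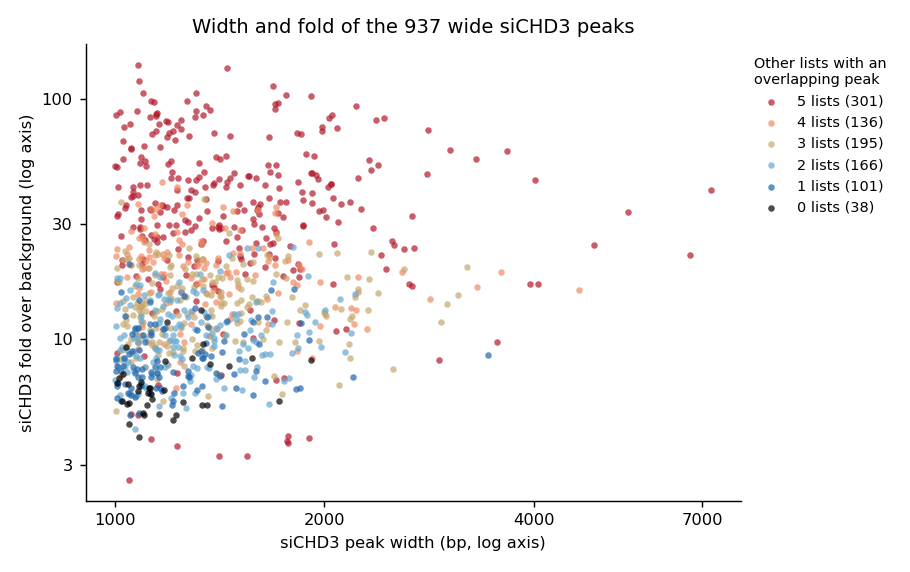
Each point is 1 of the 937 wide siCHD3 peaks by its width in bp and its fold over background (both log axes), coloured by the number of other lists with an overlapping peak. Points with partners in 5 lists fill the upper part of the fold range and a small group at its very bottom, and those with none lie low, at a median fold of 6.09.

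Partners were shorter than the wide peak in nearly all cases, which the choice by width in siCHD3 fixes in large part. The widest partner of a wide peak had a median of 836 bp in siCHD4 (quartiles 483 and 1137), 400 bp in siCHD5 (268 and 613), 367 bp in siMBD2 (266 and 598), 434 bp in siMBD3 (261 and 709) and 582 bp in siNC (347 and 914). All of these exceeded the widest partners of the narrower siCHD3 peaks, whose medians were 257 bp in siCHD4, 321 bp in siCHD5, 278 bp in siMBD2, 251 bp in siMBD3 and 326 bp in siNC. The widest of several partners was taken at up to 32.5% of the wide peaks that had one, and a long region can meet more and longer partners, so the difference is in part built into the measure. In most cases the widest partner did not reach 1000 bp. A partner was wider than the siCHD3 peak itself in 40 cases in siCHD4 and in at most 5 in each of the others. Peaks of the other lists covered 64.1% of the summed length of the wide peaks in siCHD4, 30.0% in siMBD3, 18.2% in siMBD2 and 15.6% in siCHD5, against 45.1% in siNC.

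For each siCHD3 peak the partner of highest fold was taken and ranked by fold within the partner's list. Several partners were met at up to 32.5% of the wide peaks that had one, so this choice can raise their percentile. At the wide peaks the median partner stood at percentile 92.2 in siCHD4, 49.9 in siMBD3, 21.2 in siMBD2 and 23.9 in siCHD5, against 49.7 in siNC. At the narrower siCHD3 peaks it stood at 53.4 in siCHD4, 58.3 in siMBD3, 57.8 in siMBD2 and 58.6 in siCHD5, against 58.0 in siNC. These percentiles rest on the wide peaks that had a partner, 879 in siCHD4, 629 in siMBD3, 437 in siMBD2, 359 in siCHD5 and 763 in siNC, and on lists of unequal length, so they are not compared between lists. Pileup over local background, which leaves out the constant that the caller adds to both, had a median of 38.2 in siCHD3 at the 763 wide peaks with a siNC partner, against 6.003 at those partners in siNC, and was higher in siCHD3 at 763 of 763. At narrower siCHD3 peaks the medians were 10.3 in siCHD3 and 5.96 in siNC, and 91.7% were higher in siCHD3. The median pileup at the 763 wide peaks was 35 in siCHD3 and 36 at their siNC partners. The median background was 0.872 in siCHD3 and 6.04 in siNC. The siCHD3 values took part in the choice of the peaks, so they are a description.

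The strongest summit of a wide peak was shared more often than its lesser summits. In the 804 wide peaks with several summits, the strongest had a summit within 100 bp in 82.3% for siCHD4, 55.1% for siMBD3, 40.5% for siMBD2 and 33.1% for siCHD5, against 74.0% for siNC. The other 1471 summits had one in 60.8% for siCHD4, 28.2% for siMBD3, 19.1% for siMBD2 and 16.7% for siCHD5, against 47.7% for siNC. Lesser summits were called without a counterpart in siNC in more than 50% of cases, and for the strongest this was so in fewer.

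The 5 wide peaks of highest fold lay in genes, or between genes, where RefSeq on GRCh38 also lists pseudogenes. Only these 5 were looked up, no coordinates were converted, and the share of other siCHD3 peaks of which the same holds was not counted. Whether a peak lies on the pseudogene itself was therefore not measured. The strongest, 1080 bp on chromosome 2 from 38708913 to 38709992, lay between ATL2 and HNRNPLL, where RefSeq lists 1 pseudogene, RPLP0P6, a copy of the ribosomal protein gene RPLP0 with a length of 1101 bp. It had a fold of 138 in siCHD3, 51.1 in siCHD4, 23.8 in siMBD3, 11.4 in siMBD2 and 11.5 in siCHD5, against 13.2 in siNC. The second, 1450 bp inside EDARADD on chromosome 1 from 236646392 to 236647841, had a fold of 134 in siCHD3, 52.5 in siCHD4, 25.4 in siMBD3, 6.98 in siMBD2 and 15.5 in siCHD5, against 14.5 in siNC. The 1 pseudogene listed in that gene is ENO1P1 (1808 bp), a copy of the enolase gene ENO1.

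The third, 1083 bp between HNMT and SPOPL on chromosome 2 from 139045369 to 139046451, had a fold of 119 in siCHD3 and 23.1 in siNC, and RefSeq lists 4 pseudogenes between those genes. The fourth, 1687 bp between STEAP1B and IL6 on chromosome 7 from 22549995 to 22551681, had a fold of 112 in siCHD3 and 13.1 in siNC, and the 1 pseudogene listed between those genes is EEF1A1P6 (1746 bp), a copy of the translation elongation factor gene EEF1A1. The fifth, 1096 bp inside DTWD2 on chromosome 5 from 118309355 to 118310450, had a fold of 105 in siCHD3 and 13.7 in siNC, and the 1 pseudogene listed in DTWD2 is PTMAP2 (1259 bp), a copy of the prothymosin gene PTMA. Each of the 5 was called in all other lists and was close to as wide in siNC, where the partners measured 993, 1312, 972, 1677 and 977 bp. By fold, these partners stood at percentiles 99.6, 99.8, 99.997, 99.5 and 99.7 of the siNC list. The 5 were chosen for their siCHD3 fold, so the gap to the other lists is a description. Such copies resemble their parent genes in sequence, and how reads that map to several places were treated is not given in the sources used here.

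EEF1A1 and other genes known for abundant expression also carried wide peaks. The following genes were named after the positions of the peaks had been seen and are examples. How often other siCHD3 peaks lie in such genes was not counted. EEF1A1 held a wide peak of 1982 bp with a fold of 76.4 in siCHD3, 30.9 in siCHD4, 22.5 in siMBD3, 9.58 in siMBD2 and 7.03 in siCHD5, against 8.96 in siNC, and its siNC partner measured 1952 bp. A second wide EEF1A1 peak, of 1349 bp at 8.75% of the gene, did not follow it, with a fold of 13.9 in siCHD3, 5.15 in siCHD4, 18.4 in siMBD3, 11.7 in siMBD2 and 2.76 in siCHD5. It had no overlapping siNC peak, though a siNC peak lay within 1 kb of it. Other genes known for abundant expression in many cell types, which was not measured here, also held wide peaks. HSPA8, the constitutive heat shock protein, held 1987 bp (fold 73.4 in siCHD3, 8.93 in siNC), and TUBA1B, an alpha tubulin, 1144 bp (fold 84.7 in siCHD3, 11.6 in siNC). ACTG1, cytoplasmic gamma actin, held 1661 bp (fold 53.1 in siCHD3, 7.97 in siNC), and ATF4, the transcription factor of the integrated stress response, 1278 bp (fold 70.0 in siCHD3, 8.48 in siNC). HSP90AB1, a constitutive HSP90 chaperone, held a pair of wide peaks, of 1161 and 1191 bp. H3-3B, which encodes the replication-independent histone H3.3, held 1644 bp (fold 19.9 in siCHD3, 7.42 in siNC). Apart from the second EEF1A1 peak, all of these were called in all 5 other lists.

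Genes known for a long exon or for an intronless coding sequence were also among the genes named after the positions were seen. Exon structure was not measured here, and the share of such genes at other siCHD3 peaks was not counted. IRS4, an insulin receptor substrate, held 3318 bp, HNRNPA0, an RNA-binding protein of the hnRNP family, 2677 bp, and JUN, the AP-1 transcription factor, 1255 bp with an overlapping peak in siCHD4 alone and a peak within 1 kb in all 5 other lists. SON, another speckle protein, held 1849 and 1413 bp, CENPF, a kinetochore protein, 2391 and 2215 bp, RANBP2, a nuclear pore protein, 1768 and 1659 bp, ASPM, a spindle pole protein, 1778 and 1663 bp, and DSP, the desmosomal plaque protein desmoplakin, 2212 bp. MALAT1, an abundant nuclear long noncoding RNA, held 2158 bp centred at 27.1% of the gene. ADNP, a homeodomain zinc-finger protein that partners with CHD4 in another complex, held 3444 bp at 94.8% of the gene, with a siCHD4 partner of 391 bp and none in the other lists. Over all 67 named genes that held a wide peak, 64 of 80 wide peaks lay downstream of the gene's midpoint (80%). Among siCHD3 peaks of at most 1000 bp in named genes, 116 of 172 did (67.4%). In the genes named after their positions were seen, 35 of 46 wide peaks did (76.1%), against 42 of 59 narrower ones (71.2%). In the genes named by rule it was 29 of 34 (85.3%), against 74 of 113 (65.5%). These wide peaks lay in 28 genes and the narrower ones in 40, so the compared genes differed. For the genes named after their positions were seen, these numbers were 39 and 29. The last 25% of the gene held 64.7% of the wide peaks in genes named by rule, against 45.1% of the narrower ones. In the genes named after their positions were seen it held 45.7%, against 45.8%. The contrast thus depended on the limit and on the gene set.

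Loci at which CTCF is known to shape chromatin, counted without XIST, held wide peaks at a share near that of the whole list. The fixed list took in the HOX and protocadherin clusters, imprinted loci, enhancer-rich loci such as MYC, SOX9 and SHH, globin, histone, antigen receptor and MHC loci, and the X-linked repeat DXZ4. The 28 loci counted from it held 402 siCHD3 peaks, of which 14 were wide (3.48%, against 2.73% of all siCHD3 peaks), in 6 loci. XIST, whose wide peaks are described above, and FIRRE also stood in the fixed list but were not counted here. The share therefore leaves them out. In 7 of the 28 loci no siCHD3 peak of any width was called. In the HOX clusters, which encode the homeodomain factors of body-axis patterning, wide peaks lay in the downstream part of HOXA9 (1122 bp, 74.9% of the gene), HOXA10 (1097 bp, 77.3%), HOXB9 (1095 bp, 77.3%) and HOXD13 (1066 bp, 80.5%). HOXA10 was called in all 5 other lists, with a fold of 21.6 in siCHD3, 12.1 in siCHD4, 5.12 in siMBD3, 7.08 in siMBD2 and 3.55 in siCHD5, against 4.79 in siNC, and HOXA9 had a partner in siCHD4 and nowhere else. In the protocadherin cluster the wide peak lay in TAF7, a general transcription factor gene nested there, and not in a protocadherin (1786 bp, fold 24.4 in siCHD3 and 9.44 in siNC).

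The MHC held 6 wide peaks among 137 siCHD3 peaks, against 2.73% of the whole list. TUBB, a beta tubulin, carried 2053 bp with a fold of 85.8 in siCHD3, 25.2 in siCHD4, 15.5 in siMBD3, 14.6 in siMBD2 and 7.79 in siCHD5, against 12.1 in siNC. HSPA1B, an inducible HSP70 chaperone whose near-identical neighbour HSPA1A makes its reads uncertain, carried 1701 bp (fold 94.8 in siCHD3, 12.1 in siNC). BRD2, a bromodomain protein that binds acetylated histones, carried 1307 and 1168 bp, DDX39B, an RNA helicase of mRNA export, 1030 bp with a siCHD4 partner alone, and a peak of 1018 bp was not placed. DXZ4, a tandem repeat that binds CTCF on the inactive X, held 3 wide peaks among 35, a small number for which no interval was computed. The largest of them, 1536 bp on chromosome X from 115001550 to 115003085, was called in all 5 other lists, with a fold of 18.6 in siCHD3, 9.92 in siCHD4, 15.1 in siMBD3, 10.4 in siMBD2 and 7.73 in siCHD5, against 4.48 in siNC.

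In the 14 NuRD genes 0 of 28 siCHD3 peaks were wide, a number too small to be set apart from the 2.73% of the whole list. In the 6 genes of CTCF and cohesin, 3 of 23 siCHD3 peaks were wide, against 2.73% of the whole list, and no interval was computed for so small a number. They lay at the 3′ ends of RAD21, the kleisin of cohesin (1309 bp, 96.3% of the gene), SMC1A, an ATPase arm of the ring (2113 bp, 89.8%), and STAG2, its regulatory subunit (1707 bp, 99.1%). The STAG2 peak had a fold of 27.4 in siCHD3, 12.1 in siCHD4, 3.19 in siCHD5 and 6.64 in siMBD3, against 5.58 in siNC, with no siMBD2 partner.

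A small group of wide peaks stood alone. With no peak of any other list within 1 kb, there were 29 (3.09%), against 20.05% of all siCHD3 peaks. The strongest were in LITAF, an endosomal membrane protein (1331 bp, fold 13.2, pileup 18), SEPHS1, a selenophosphate synthetase homologue (1189 bp, 11.8, pileup 16), NET1, a RhoA exchange factor (1337 bp, 9.52, pileup 13), and ARRDC4, an arrestin-domain protein (1037 bp, 9.28, pileup 14). Their centres lay at 97.2% of LITAF, 96.5% of SEPHS1, 98.0% of NET1 and 83.6% of ARRDC4. The next was a pair with equal fold of 8.31, a peak of 1576 bp on chromosome 14 from 105696625 to 105698200 that was not placed, and 1290 bp in the nuclear pore gene NUP210 at 99.3% of the gene. All 6 rested on 11 to 18 fragments at the summit.

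The 5 lowest folds belonged to wide peaks over a high local background, from 20.8 to 1322. The lowest 5 were 1049 bp on chromosome 1 from 121484364 to 121485412 (fold 2.59), 1546 bp on chromosome 10 from 42534470 to 42536015 (3.25), 1413 bp on chromosome 2 from 92306708 to 92308120 (3.26), 1229 bp on chromosome 18 from 18518375 to 18519603 (3.58) and 1774 bp on chromosome X from 58572343 to 58574116 (3.70). All 5 were called in all 5 other lists. The first rested on a pileup of 3425 over a background of 1322, and its fold was 2.59 in siCHD3, 2.48 in siCHD4, 3.36 in siMBD3, 3.34 in siMBD2 and 1.56 in siCHD5, against 1.63 in siNC. Within 1 Mb of the longest stretch without a peak on their chromosome there were 20 wide peaks (2.13%), against 1.40% of all siCHD3 peaks. Those 20 had a median fold of 4.84 over a median background of 14.6, against 0.785 for the other wide peaks, and 16 of them were called in all 5 other lists. The 20 were mixed, since 6 of them reached the median fold of all wide peaks, 15.2. Distance to the centromeres was not measured.

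Chromosome X had the highest share of wide peaks, 78 of its 1686 siCHD3 peaks (4.63%, interval 3.67 to 5.74), against 25 of 1807 (1.38%) in siNC. Chromosome 4 had the lowest, 26 of 1515 (1.72%, 1.12 to 2.51), against 3 of 1673 (0.179%) in siNC. The chromosomes in between ran from 1.74% on chromosome 15 to 3.34% on chromosome 16. The interval of chromosome X lay above the 2.73% of the whole siCHD3 list, those of chromosomes 4, 14 and 15 lay below it, and the others contained it. Chromosome X also had the highest share of the 23 in siNC. Another wide peak lay within 10 kb for 90 wide peaks (9.61%) and within 100 kb for 175 (18.7%). Any siCHD3 peak had another siCHD3 peak within these distances in 41.2% and 91.05% of cases, over a list of 34319 peaks in place of 937, so the shares cannot be compared directly.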

How the data were processed

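CTCF ChIP-seq libraries and inputs of HEK293T cells were sequenced from both ends after PCR, as the labels' protocols state. The submitters' processing notes name MACS2 2.1.2 and the build hg19, and besides them deepTools 3.5.0, bedtools 2.25.0, SAMtools 1.9, Bowtie2 2.3.4 and FastQC 0.11.7. Their settings, including duplicate removal, mapping-quality filters and the treatment of reads with several mapping places, are, like the peak threshold, not given in the sources used here. Deposited narrowPeak lists were called by the authors on the 3 pooled immunoprecipitates of a condition against control, per the peak names in the files.

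The deposited columns hold the authors' fold enrichment at each summit, a ratio over local background with a constant added to both, the authors' −log10 p and −log10 q, the authors' display score, which was not used, and the deposited summit offset. A fold is therefore a value of its peak in its list. The smallest deposited −log10 q was 1.30. A stretch can be cut into several peaks where the signal falls below the caller's threshold, so depth can affect width. Reads per sample were not used here, and depth is unknown beyond the background stated.

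Lines sharing chromosome, start and end were counted as 1 peak with the values of the summit of highest fold. Overlap required 1 bp. Shares carry exact Clopper-Pearson 95% intervals. Pileup and background were solved from fold and p, taking p as a Poisson upper tail, and whole pileups gave back the deposited p to 0.01% at 100% of peaks. The overlap search and this solution were tested on simulated data. Peaks were named if they were among the 10 widest, the 5 of highest or lowest fold, the 5 widest with all 5 partners, the 5 strongest alone within 1 kb, the 5 with most summits, the 3 on each side of the width limit, or in a fixed list of loci. Genes named beyond that were chosen after their positions were seen. The members, lists and tests were chosen with earlier results of these data known. Tried alternatives changed the overlap rule, the q threshold, the width limit and the contigs. One, added after seeing the data, left out wide peaks near the longest peak-free stretch of a chromosome. The software was pandas 2.3.3, scipy 1.17.1, numpy 2.4.6 and matplotlib 3.10.9 under Python 3.11.15. No genome of hg19 was used here, so sequences are not printed.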

Additional observations from a re-analysis of the deposited data

Results flagged for a closer look

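Contigs outside chromosomes 1 to 22 and X were not part of the count of wide peaks, and they held 53 further siCHD3 peaks over 1000 bp, 5.11% of the 1037 siCHD3 peaks there. The same contigs held 24 wide peaks in siCHD4 (3.64%), 13 in siMBD3 (2.13%), 16 in siMBD2 (2.65%) and 8 in siCHD5 (1.37%), against 14 in siNC (2.39%). The siCHD3 number was thus above the control number, as on the chromosomes analysed. What these contigs hold was not analysed here.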

How the results depend on the processing

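With a width limit of 800 bp the wide siCHD3 peaks numbered 1523, and with 1500 bp 290, while all contigs gave 990. The shares of wide peaks with a partner, in the order siCHD4, siCHD5, siMBD2, siMBD3 and siNC throughout, moved with the overlap rule. They were 54.6%, 7.68%, 8.22%, 15.4% and 31.7% at a reciprocal overlap of 50%, which an unequal width alone can fail, and 78.2%, 29.9%, 37.2%, 51.2% and 68.5% for any summit within 100 bp. Any peak within 1 kb gave 41.7% in siCHD5, 50.2% in siMBD2, 71.0% in siMBD3, against 84.2% in siNC. A −log10 q of at least 10 gave 62.4%, 20.5%, 19.4%, 26.6% and 50.9% when set on the other list and 98.2%, 43.8%, 53.4%, 75.2% and 89.6% when set on siCHD3. Widths over 800 bp gave 89.1%, 33.8%, 42.0%, 61.1% and 74.9%, and over 1500 bp 98.6%, 49.3%, 57.6%, 78.3% and 90.7%. In each of these settings siCHD4 came first, siNC next and siMBD3 after it, and siCHD5 came last except with the q limit on the other list, where siMBD2 did. At a reciprocal overlap of 50%, 4.48% had a partner in all 5 lists. With summits of −log10 q of at least 10, 58.3% held several. Partners over 800 bp were present at 49.5%, 6.19%, 6.83%, 14.7% and 26.3%. In these 43 cases the value left the 95% interval of the reported one, or a count moved by over 1.5 times, and apart from what each setting does by construction the cause was not tested. The other 17 of 60 values, among them all 14 without the 20 wide peaks near the longest peak-free stretch, did not.

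No paired analysis was possible because the authors pooled the replicates before calling peaks. Leaving out a replicate was not possible either. Where a partner is missing, no peak passed the threshold of that list. The lists differed in lowest background, which scales with depth and fragment length, and depth itself was not measured.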
